A study of Mus musculus with 9 samples.

Results

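The transcripts described here encode the contractile machinery of striated muscle apart from the troponins. They comprise 31 genes taken by symbol from the 48397 gene symbols of the count files, in 4 groups: 9 genes of the thick filament, 5 of the thin filament, 6 of titin and the M-band, and 11 of the Z-disc with its desmin link. The libraries were made from cardiac outflow tracts of C57BL/6J mouse embryos at embryonic day 12.5. One group of 4 libraries came from wild-type embryos (Nkx2-5+/+). The other group of 5 libraries came from embryos homozygous for a deletion of an enhancer of Nkx2-5 that is active in the anterior second heart field (Nkx2-5delta-enh/delta-enh). The series compares enhancer mutants with wild-type littermates, and the comparison asks how loss of this enhancer affects expression in the outflow tract. The deletion is carried by every cell of the embryo, and the whole dissected outflow tract was profiled, so each value is a mixture over myocardium, smooth muscle, endothelium, cushion and other cells.

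A sarcomere is the repeating unit of the myofibril. Myosin thick filaments, cross-linked at the M-band, slide past actin thin filaments that are anchored with alpha-actinin at the Z-disc, and titin runs from the Z-disc to the M-band as a molecular spring. At this stage the outflow tract still has a myocardial wall, built from second heart field progenitors, while its distal part is gaining smooth muscle. Nkx2-5 encodes a homeodomain transcription factor of cardiac progenitors and cardiomyocytes. Several sarcomere proteins come in paralogous forms whose use differs between atrium, ventricle and skeletal muscle, and the outflow tract myocardium of the embryo expresses both atrial and ventricular forms.

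Libraries held 27707435 to 49094225 counts assigned to genes, and between 20606 and 22093 genes had a count. The level of Nkx2-5, the gene whose enhancer was deleted, checks the labels. It was 18.8, 41.9, 44.95 and 39.5 CPM (counts scaled to a common library size) in wild type 1 to 4 and 16.5, 24.4, 17.8, 11.4 and 17.4 CPM in deletion 1 to 5. The groups overlapped through wild type 1. The log2 fold change, always given as deletion against wild type, was -1.05 ± 0.26 (SE), with an exact two-sided permutation p of 0.0238 (n = 4 and 5) and an edgeR adjusted p of 0.896. The summed level of 15 cardiomyocyte markers, which checks the tissue, ranged from 5137 to 9572 CPM for wild type and from 5713 to 8451 CPM for the deletion. Deletion 2 stood apart in neuron and Schwann cell markers, with 3150 CPM against at most 189 CPM in every other library.

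For 25 of the 31 genes a promoter sequence was matched in RefSeq (GRCm38.p6); Tcap, Lmod3, Trim55, Myom2, Xirp1 and Nexn were not matched. The 250 bases upstream of the first listed start were searched on both strands for short motifs, with the TATA box read on the transcribed strand only. The CArG box, the sequence read by serum response factor, was found in 6 of the 25 promoters (24%), those of Acta1, Actc1, Ldb3, Myl3, Myl7 and Myom1, against 1.40% of 27025 promoters of the same length. The MEF2 motif CTANNNNTAG was found in 5 (20%), those of Mybpc3, Myoz2, Smpx, Synpo2l and Ttn, against 3.23%. The GATA motif AGATAA was found in 5 (20%) against 10.3%, and the TEAD motif GGAATG in 8 (32%) against 12.6%. The E-box CANNTG was found in 21 (84%) against 66.0% of all promoters, and TATAAA in 3 (12%) against 8.12%. The core that NKX2-5 reads, AAGTG, was found in 11 (44%) against 40.8%, and its longer form TNAAGTG, which contains the core, in 2 (8%) against 10%. The first listed start lay furthest from the gene start as GENCODE draws it for Nebl (61299 bases), Myl3 (21817), Myom1 (16924), Myl2 (8227), Mylk3 (5304), Unc45b (703) and Actc1 (673). The matches in those windows include the CArG boxes of Myl3, Myom1 and Actc1 and the GATA motifs of Nebl, Myom1, Myl2 and Mylk3. These matches describe letters in a window and are not measured sites.

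The windows of 5 promoters are shown, 5′ to 3′ on the gene's own strand, because they hold the CArG box or the MEF2 motif, the 2 motifs with the highest ratio of their share here to that in all promoters, in genes the results below turn on. Capitals mark matches to the CArG box, the MEF2, GATA and NKX2-5 core motifs and the TATA box, on either strand except for the TATA box. TEAD and E-box matches are left in lower case. Acta1 (chr8:123894776-123895025, minus strand) holds a CArG box and ends in a TATA box. Actc1 (chr2:114052876-114053125, minus strand) and Myl7 (chr11:5898783-5899032, minus strand) hold a CArG box near the start, and Myl7 also holds an NKX2-5 core further upstream. The Actc1 window belongs to a start that lies 673 bases inside the gene as GENCODE draws it. Mybpc3 (chr2:91117894-91118143, plus strand) holds an NKX2-5 core and a MEF2 match, and Smpx (chrX:157698723-157698972, plus strand) holds 2 GATA matches around a MEF2 match.
Acta1: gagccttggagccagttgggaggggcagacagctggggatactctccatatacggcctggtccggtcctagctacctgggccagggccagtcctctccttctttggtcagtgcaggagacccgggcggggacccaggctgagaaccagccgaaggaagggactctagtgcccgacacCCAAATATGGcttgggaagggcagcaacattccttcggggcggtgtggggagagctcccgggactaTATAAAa
Actc1: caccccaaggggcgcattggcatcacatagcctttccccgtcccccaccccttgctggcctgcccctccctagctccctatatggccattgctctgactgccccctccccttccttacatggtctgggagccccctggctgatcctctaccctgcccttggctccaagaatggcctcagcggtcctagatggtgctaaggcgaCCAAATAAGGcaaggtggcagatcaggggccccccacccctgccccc
Myl7: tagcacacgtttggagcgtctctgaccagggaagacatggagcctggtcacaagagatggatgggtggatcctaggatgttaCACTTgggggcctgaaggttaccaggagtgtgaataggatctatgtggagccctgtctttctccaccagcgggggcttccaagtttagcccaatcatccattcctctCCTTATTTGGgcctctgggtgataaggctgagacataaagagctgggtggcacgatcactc
Mybpc3: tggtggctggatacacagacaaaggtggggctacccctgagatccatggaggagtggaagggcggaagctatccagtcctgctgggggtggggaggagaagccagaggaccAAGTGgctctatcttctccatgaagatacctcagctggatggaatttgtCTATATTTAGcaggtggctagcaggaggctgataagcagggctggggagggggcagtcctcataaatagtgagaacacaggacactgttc
Smpx: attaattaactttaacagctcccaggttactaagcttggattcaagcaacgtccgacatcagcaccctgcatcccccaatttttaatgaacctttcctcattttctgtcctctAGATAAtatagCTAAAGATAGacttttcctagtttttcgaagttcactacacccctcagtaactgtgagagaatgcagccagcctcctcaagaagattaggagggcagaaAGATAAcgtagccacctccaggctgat

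All 31 transcripts were detected and passed the filter on low counts. Together they took 1.11% of gene counts in wild type 1, the lowest share, and 2.49% in wild type 2, the highest, with 1.51% to 2.03% in the deletion libraries. Levels of different genes are compared as CPM per kilobase of the principal GENCODE transcript, and all values in this paragraph are such levels, as means of the 9 libraries. Cardiac actin Actc1, the main thin filament actin of the heart, was highest at 3958, with a library range of 2135 to 5192. The atrial regulatory light chain Myl7 followed at 2619.6, then the ventricular essential light chain Myl3 at 1046 and alpha-tropomyosin Tpm1 at 888. The ventricular regulatory light chain Myl2 stood at 524, the atrial essential light chain Myl4 at 444 and beta-myosin heavy chain Myh7 at 431. The most abundant Z-disc transcript was Csrp3, which encodes muscle LIM protein, at 414, ahead of alpha-actinin Actn2 at 269. Mybpc3, the cardiac myosin-binding protein C, was at 258 and skeletal actin Acta1 at 249.

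The intermediate filament gene Des was at 98.0 CPM per kilobase and alpha-myosin heavy chain Myh6 at 58.4. The lowest levels per kilobase belonged to M-protein Myom2 (6.04), the leiomodins Lmod2 (5.70) and Lmod3 (5.32), which act at the pointed end of the thin filament, the alpha-kinase family member Alpk3 (3.11) and titin, Ttn (1.67). The Ttn transcript is 100404 bases long, and its level per length depends on how evenly a very long transcript was covered. Of the 30 pairs of neighbours in this order, 0 had library ranges that did not overlap, while in 4 pairs the higher gene was higher within every library. Neighbouring ranks are therefore mostly within the spread of the libraries, whereas the top and the bottom of the order were separate. With all annotated exons as the length in place of the principal transcript, the rank correlation with this order was 0.98 over the 31 genes. Single ranks still moved: Actn2 (214) was then ahead of Csrp3 (139), and Myl4 went from rank 6 to rank 11. Myh6 and Myh7 share 21.9% and 21.2% of their 50-base windows with each other, so reads of these neighbours on chromosome 14 can be split uncertainly between them.

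**Figure D1:**
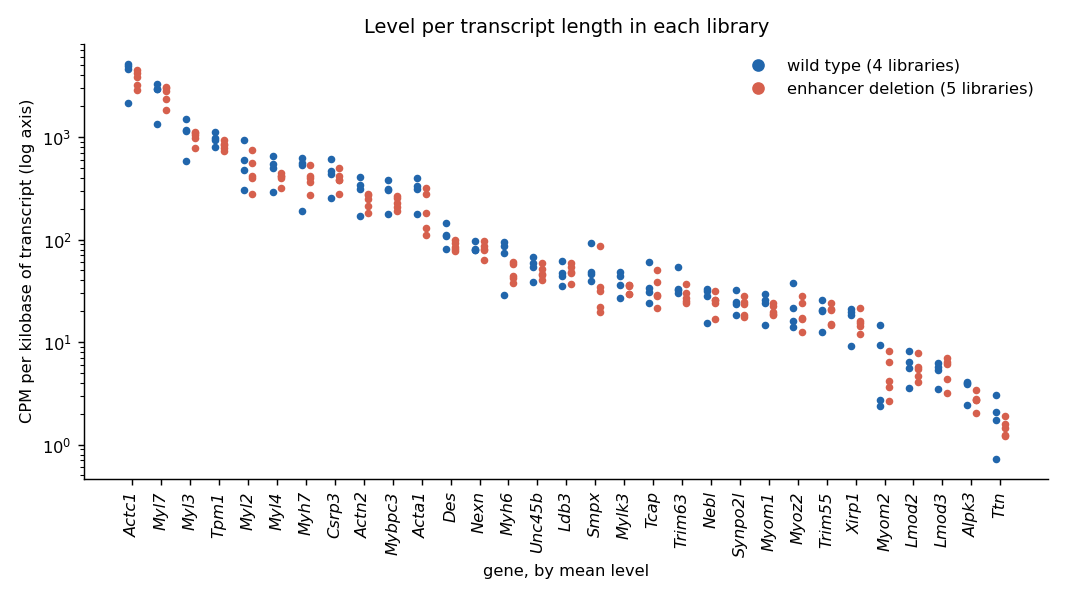
Level of each gene per kilobase of transcript, in CPM per kilobase on a log axis, with genes ordered by their mean over the 9 libraries; blue points are the 4 wild-type and red points the 5 deletion libraries. Levels run from a mean of 3958 for Actc1 to 1.67 for Ttn, and for every gene the 2 groups overlap.

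Across libraries the transcripts went up and down largely together, in both genotypes. In wild type 2 all 31 genes were above their own mean over the 9 libraries, and 22 had their highest value there. In wild type 1 only 3 were above their own mean and 18 had their lowest value, and in deletion 4 the count above the mean was 0 and 9 had their lowest value. The median deviation from each gene's mean log2 CPM was -0.51 in wild type 1, 0.50 in wild type 2, 0.21 in wild type 3 and 0.17 in wild type 4. In deletion 1 to 5 it was -0.24, 0.06, 0.05, -0.35 and -0.00. Thus the lowest and the highest library of all were both wild type, and the deletion libraries lay between them.

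A first principal component of the 31 standardised transcripts held 66.2% of their variance and a second 15.5%; over all genes tested the first component held 27.6%. Of the 465 gene pairs, 343 had a Pearson correlation above 0.5 and 21 below 0, with a median of 0.68 over the 9 libraries. The same median was 0.83 after centring within the sets of libraries described below that share a number. The thick filament genes were the most alike, with a median of 0.82, followed by the Z-disc genes at 0.73, and titin with the M-band and the thin filament at 0.59 and 0.58. All these correlations are descriptions: the points share 9 libraries, and library composition and depth enter each of them. The partners Myh6 and Myh7 correlated at 0.92, and Actn2 and Mybpc3, which encode proteins of the Z-disc and the thick filament, at 0.96. Against the mean of the other genes, 18 of the 31 had a correlation above 0.8, led by Mybpc3 at 0.97, Actn2 at 0.94 and Myl3 at 0.93.

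**Figure D2:**
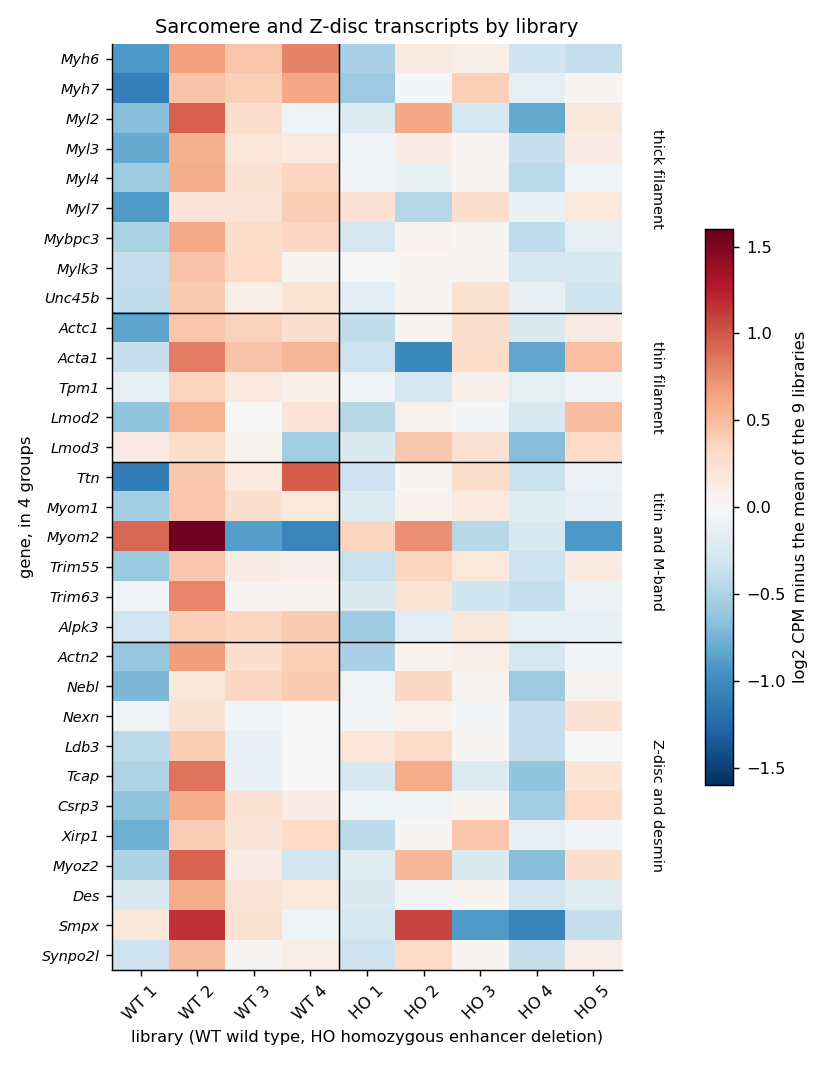
Log2 CPM of each gene minus its mean over the 9 libraries (colour), with genes in rows by group and libraries in columns, the line separating wild type from deletion. Wild type 2 is red throughout and wild type 1 mostly blue; Myom2 departs from this in wild type 1, where it is high, as it is in wild type 2, deletion 1 and deletion 2.

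A second pattern ran across the first. The ventricular light chain Myl2 went with titin-cap Tcap (r = 0.96 over 9 libraries), with Myoz2, the Z-disc calsarcin (0.97), and with Smpx, a small X-linked muscle protein (0.80), but less with the atrial light chain Myl7 (0.29). Myl2 was at 270.1, 838, 526 and 421 CPM in wild type 1 to 4 and at 373, 666, 358, 246 and 492 CPM in deletion 1 to 5. Myl7 was at 797, 1727, 1718 and 1963 CPM in the wild-type libraries and 1760.3, 1087, 1799, 1384 and 1674 CPM in those of the deletion. Deletion 2 was thus the second highest library for Myl2 and the second lowest for Myl7. Relative to the median deviation of all 31 genes in that library, deletion 2 had Smpx at 1.019, Myl2 at 0.56, Tcap at 0.53 and Myoz2 at 0.46 on the log2 scale, against -0.52 for Myl7 and -1.10 for Acta1. Deletion 2 is also the library with the high neuron markers. The second component also split the libraries by the number described below, with its highest loadings on Myom2 (0.36) and Smpx (0.34). Its score was 2.24, 2.10, 0.44 and 3.11 in wild type 1 and 2 and deletion 1 and 2. In wild type 3 and 4 and deletion 3 and 4 it was -1.33, -2.83, -1.96 and -2.28, and in deletion 5 it was 0.52. The part of the neuron markers and of the number in this pattern was not tested. The least typical transcript was Myom2, with a correlation of 0.02 to the mean of the others and -0.07 to its paralog Myom1.

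Deletion against wild type, no sarcomere transcript passed the test: 0 of 31 had an edgeR adjusted p under 0.05, where 0% of the 16522 genes tested were called. The smallest adjusted p among the 31 was 0.896. At an unadjusted p under 0.05, 1 of the 31 was lower (Des) and 0 higher, against 2.94% of all genes lower and 5.27% in either direction. DESeq2 called 40 genes (0.145% of 27633) and 0 of the 31. The fold changes nevertheless lay mostly on one side, with 29 of 31 below 0 against 49.4% of all genes, and a median log2 fold change of -0.18 against 0.003. Because these genes co-vary over the same libraries, their signs are not independent of one another. The counts of signs here and below carry no test. The 0 genes whose groups did not overlap compare with 1.8% of all genes.

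The size of this shift depended on single wild-type libraries. Without wild type 1, the lowest library, the median was -0.37, 30 of 31 values were below 0, and 15 genes were lower at an unadjusted p under 0.05 (2.86% of all genes), the smallest adjusted p being 0.556. In 12 genes every deletion library was then below every wild-type library (2.74% of all genes): Myh6, Myh7, Myl3, Myl4, Mybpc3, Mylk3, Actc1, Tpm1, Myom1, Alpk3, Actn2 and Des. Without wild type 2, the highest library, the median was -0.05, 17 of 31 values were below 0, and 0 genes had an unadjusted p under 0.05. Leaving out any other library gave medians of -0.26 to -0.14 with 26 to 30 values below 0. With wild type 3 and 4 against deletion 3 to 5 only, the median was -0.25 and 28 of 31 values were below 0. With wild type 1 and 2 against deletion 1 and 2 only, the median was -0.11 and 25 of 31 values were below 0. By group, the Z-disc and desmin genes turned without wild type 2, with 4 of 11 values below 0 and a median of 0.01, while the other 3 groups kept medians below 0 (-0.11 for the thick filament, -0.05 for the thin filament and -0.11 for titin and the M-band).

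The mean of the 14 cardiomyocyte markers other than Nkx2-5, none of which is among the 31 genes, moved with these transcripts in part. This mean log2 CPM was 7.66, 8.56, 8.21 and 8.23 in wild type 1 to 4. It was 8.09, 8.37, 7.90, 7.66 and 7.91 in deletion 1 to 5. Single markers departed from it: Tbx20 was lowest in wild type 2, at 327 CPM against 339 to 815 CPM elsewhere. Gata4 was at 246 CPM there, above wild type 1 alone. Ckm, also among these markers, split by the library number described below. In a bulk sample fewer cardiomyocytes and less sarcomere RNA per cardiomyocyte cannot be told apart. With that marker mean as a covariate, the median log2 fold change of the 31 genes was 0.008, and 15 of 31 values were below 0. The markers include the troponins Tnnt2, Tnni3, Tnni1 and Tnnc1, and also Smyd1 and Hspb7, which are on the list of other sarcomere genes. Sarcomere RNA was thus adjusted partly by sarcomere RNA. A median near 0 is in part built in, and no conclusion is drawn from it. In that fit 1 gene had an unadjusted p under 0.05 (6.06% of all genes), Ldb3, whose value was 0.23. Markers of other cell types varied as well: smooth muscle markers, all 10 of which had a fold change below 0, had sums of 3997 to 4373 CPM for wild type and 2610 to 3998 CPM for the deletion. Of 21 skeletal muscle markers, Myh4, Pax7 and Tnnc2 were at 0 in every library, and the sum was 59.2 to 99.2 CPM for wild type against 26.7 to 57.4 CPM for the deletion. Mybpc1, described with the other sarcomere genes at the end, made that separation: without it the other 20 summed to 15.7 to 35.9 CPM for wild type and 14.9 to 29.4 CPM for the deletion. Epicardium markers had 7 of 8 values below 0 with a median of -0.55, and cushion mesenchyme markers had 1 of 9 below 0 with a median of 0.37. The sums overlapped for both lists. Epicardium markers summed to 744 to 1151 CPM for wild type and 463 to 799 CPM for the deletion. The cushion sums, at 3334 to 4385 CPM for wild type and 2873 to 3703 CPM for the deletion, did not share the direction of that list's median. The part of these cell types in the values here was not tested.

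**Figure D3:**
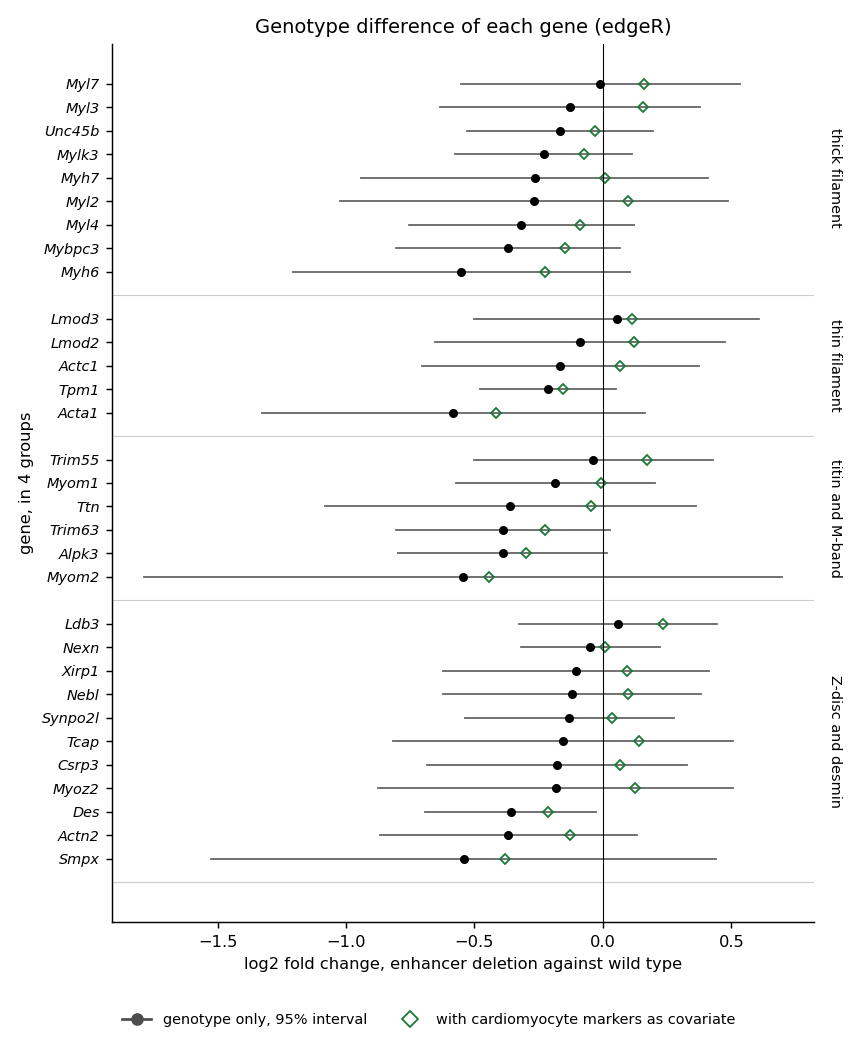
Log2 fold change of each gene, deletion against wild type, from edgeR, with its 95% confidence interval (black), and the estimate with the cardiomyocyte markers as a covariate (green diamonds); genes are in 4 groups. Of the 31 black points 29 lie below 0, and of the green points 15.

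In the thick filament all 9 fold changes were below 0, with a median of -0.27, and 0 of 9 passed the test. Alpha-myosin heavy chain Myh6 was at 177, 527, 453 and 577 CPM in wild type 1 to 4 and at 232, 369.6, 354, 267 and 256 CPM in deletion 1 to 5. All deletion libraries were below 3 of the wild-type libraries and above wild type 1. Its log2 fold change was -0.55 ± 0.30 (SE; 95% interval -1.21 to 0.10). Beta-myosin heavy chain Myh7, the main cardiac heavy chain of the fetal mouse heart, was at 1183, 3472, 3311 and 3889 CPM across the wild-type libraries against 1692, 2479, 3296, 2279 and 2582 CPM across the deletion libraries. Wild type 1 was again the lowest of the 9, and the log2 fold change was -0.27 ± 0.31. Mybpc3, which tethers myosin heads along the filament, was at 732, 1592, 1276 and 1308 CPM in the wild-type libraries and 865, 1097, 1058, 789 and 939 CPM in those of the deletion (-0.37 ± 0.20).

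Among the light chains, which stiffen and regulate the myosin lever arm, Myl3 was at 544, 1421, 1086 and 1063 CPM across the wild-type libraries against 917, 1036, 977, 738 and 1040.2 CPM across the deletion libraries (log2 fold change -0.13 ± 0.23). Myl4 was at 275, 616, 476 and 515 CPM in the wild-type libraries and 392, 379, 422, 302 and 392 CPM in those of the deletion (-0.32 ± 0.20). For both, all deletion libraries were below wild type 2 to 4 and above wild type 1. The fold change of Myl2 was -0.27 ± 0.34, and that of Myl7 was -0.01 ± 0.25 with a 95% interval of -0.55 to 0.53. Myl7 therefore had nearly equal group means, with 1551 ± 515 CPM for wild type (SD, n = 4) against 1541 ± 301 CPM for the deletion (SD, n = 5), but the interval allows a difference of about 0.5 either way. The cardiac light chain kinase Mylk3 (-0.23) and the myosin chaperone Unc45b (-0.17) gave smaller values with intervals that include 0.

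In the thin filament 4 of 5 fold changes were below 0, with a median of -0.17, and 0 of 5 passed the test. Actc1 was at 3146, 7648, 7275 and 6748 CPM across the wild-type libraries against 4276, 5703, 6718, 4785 and 6178 CPM across the deletion libraries (log2 fold change -0.17 ± 0.24). Skeletal actin Acta1, which the embryonic heart coexpresses with the cardiac form, was at 256, 581, 452 and 477 CPM in the wild-type libraries and 263, 161, 404, 186 and 461 CPM in those of the deletion. Deletion 2 and 4 were below every wild-type library, while deletion 1, 3 and 5 lay among them, and the value was -0.58 ± 0.33. Tpm1 varied least in this group, at 1520.0, 2147, 1859 and 1773 CPM across the wild-type libraries against 1603, 1391, 1769, 1500.4 and 1612 CPM across the deletion libraries (-0.21 ± 0.12). Lmod2 (-0.09) and Lmod3 (0.05) had the smallest differences, at levels of 7.03 to 16.0 and 7.09 to 15.4 CPM.

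In titin and the M-band all 6 fold changes were below 0, with a median of -0.37, and 0 of 6 passed the test. Titin, Ttn, was at 73.0, 211, 175 and 307 CPM in the wild-type libraries and 125, 161, 191, 123 and 147 CPM in those of the deletion, so that the wild-type values enclosed all deletion values (-0.36 ± 0.32). Myomesin Myom1, which cross-links thick filaments, was at 83.2, 165, 145 and 137 CPM across the wild-type libraries against 104, 126.4, 136, 106 and 111 CPM across the deletion libraries (-0.18 ± 0.18). Trim63, the muscle ubiquitin ligase MuRF1, was at 57.2, 103, 61.4 and 61.6 CPM in the wild-type libraries and 50.7, 69.5, 47.7, 45.8 and 56.4 CPM in those of the deletion. Deletion 2 alone was above the lowest wild-type value, and the log2 fold change was -0.39 ± 0.19, with an unadjusted p of 0.0653 and an adjusted p of 0.896 from edgeR. Alpk3 was at 15.6, 25.3, 24.6 and 25.8 CPM across the wild-type libraries against 13.1, 17.2, 21.8, 17.3 and 17.7 CPM across the deletion libraries (-0.39 ± 0.18). All deletion libraries of Alpk3 were below wild type 2 to 4. Trim55, the related ligase MuRF2, had a value of -0.04.

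In the Z-disc and desmin group 10 of 11 fold changes were below 0, with a median of -0.15 that turns without wild type 2, and 0 of 11 passed the test. Desmin, Des (chromosome 1, 75360329 to 75368579, mm10), which encodes the intermediate filament linking Z-discs to one another, was at 248, 441, 337 and 328 CPM in wild type. It was at 247.2, 281, 301, 235 and 254 CPM in the deletion. Deletion 1 and 4 were below all wild-type libraries and the other 3 below wild type 2 to 4. The log2 fold change was -0.36 ± 0.15 (95% interval -0.69 to -0.03), with an unadjusted p of 0.0373 and an adjusted p of 0.896 from edgeR. Desmin is also made by smooth muscle, whose marker sums are given above, and GENCODE places the antisense gene Gm15179 over it. Alpha-actinin Actn2 was at 512, 1239, 939.8 and 1018 CPM in the wild-type libraries and 546, 811, 838, 641 and 756 CPM in those of the deletion (-0.37 ± 0.23).

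Csrp3 was at 231, 544, 423 and 393 CPM across the wild-type libraries against 344, 345, 373, 248 and 448 CPM across the deletion libraries (-0.18 ± 0.23). The actin-binding Nexn varied little, with a range of 162 to 246.7 CPM over all libraries and a value of -0.05. The PDZ-LIM protein gene Ldb3 was the exception in sign, at 0.06 ± 0.17. The remaining Z-disc genes had values from -0.54 for Smpx to -0.10 for Xirp1, all with intervals that include 0.

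Replicate numbers were shared by both genotypes and were used as a block in a second edgeR fit. In that fit 0 of 31 genes passed the test, and 5 were lower at an unadjusted p under 0.05 (2.64% of all genes): Acta1, Trim63, Alpk3, Des and Smpx. DESeq2 with the same block called 65 genes (0.231%) and 0 of the 31.

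Because the ratio of 2 transcripts within a library does not change when both scale together, 5 ratios of paralogs were compared between the genotypes with exact two-sided permutation tests (n = 4 and 5), adjusted over the 5 ratios. The essential light chain ratio Myl4/Myl3, atrial to ventricular, was -0.98, -1.21, -1.19 and -1.05 as a log2 ratio of counts in wild type 1 to 4. It was -1.23, -1.45, -1.21, -1.29 and -1.41 in deletion 1 to 5. Every deletion library was below every wild-type library, although the nearest values differ only in the third decimal. The difference of the means was -0.21, from -1.11 ± 0.11 (SD) to -1.32 ± 0.11 (SD), with an exact p of 0.0159 and an adjusted p of 0.0794, which misses the threshold. Within the 4 numbered pairs the ratio was lower in the deletion each time, by a mean of -0.19. The paired exact permutation p was 0.125, the smallest that 4 pairs allow. Any pairing of separate groups gives this direction and this p, so the paired result adds no support. Both genes overlap annotated antisense genes, Gm11661 and others at Myl4 and Pth1r at Myl3, and the strand setting of the counting is not given.

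The myosin heavy chain ratio Myh6/Myh7 was -2.74, -2.72, -2.87 and -2.75 in wild type and -2.87, -2.75, -3.22, -3.09 and -3.33 in the deletion. Deletion 3, 4 and 5 were below every wild-type library and deletion 1 and 2 among them; the difference of -0.28 had an exact p of 0.0873 and an adjusted p of 0.21, and was also lower in 4 of 4 pairs (mean -0.21, paired exact permutation p 0.125). The regulatory light chain ratio Myl7/Myl2 ranged from 0.71 in deletion 2 to 2.49 in deletion 4 and differed by 0.27 (exact p 0.548). Per kilobase, Myl7 exceeded Myl2 in each library, by 2.46-fold to 8.48-fold. The ratio Myom1/Myom2 differed by 0.10 (exact p 0.889). The smallest p that this design allows is 0.00794.

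**Figure D4:**
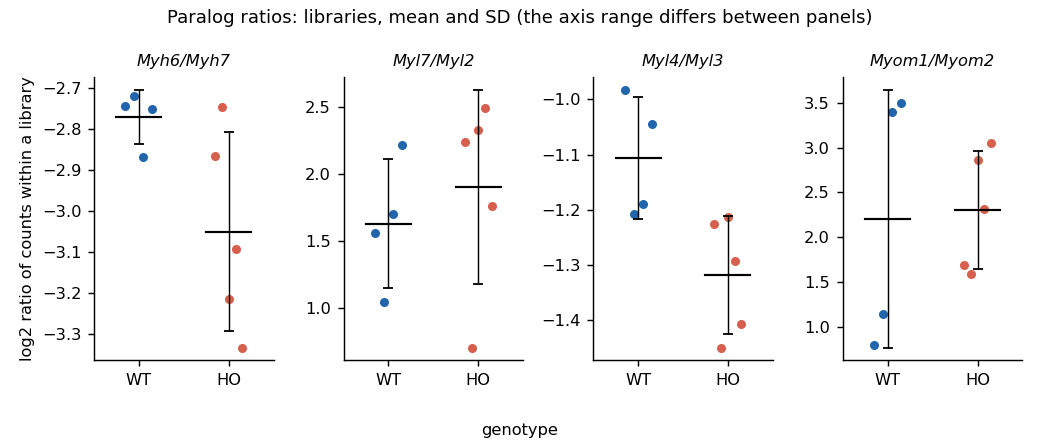
Log2 ratio of the counts of 2 paralogs within each library, one panel per pair, for wild type (WT, blue, 4 libraries) and deletion (HO, red, 5 libraries); lines are group means and bars the SD. The 2 groups are separate in the Myl4/Myl3 panel and overlap in the other panels.

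The names of the deposited count files carry a number that is shared by wild type 1, wild type 2, deletion 1 and deletion 2, and another shared by wild type 3, wild type 4, deletion 3 and deletion 4. Deletion 5 has a number of its own. The labels do not say what the number stands for. The sets with the first and the second number (8 libraries) were compared in a fit that also held genotype. Here 1 of 31 genes passed the test, against 9.87% of the 16303 genes tested, and 4.25% of all genes lower with the second number. That gene was Myom2 (chromosome 8, 15057653 to 15133541, mm10), the M-protein of the M-band.

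Myom2 was at 47.9 and 74.7 CPM in wild type 1 and 2 and at 32.1 and 41.9 CPM in deletion 1 and 2, the libraries of the first number. It was at 13.8 and 12.1 CPM in wild type 3 and 4, at 18.7 and 21.2 CPM in deletion 3 and 4, and at 13.4 CPM in deletion 5. All libraries of the first number were thus above all others, in both genotypes. The log2 difference, second minus first number, was -1.57 ± 0.28 (SE; adjusted p 0.0149, edgeR). The call was lost without wild type 3 (adjusted p 0.0690), without wild type 4 (0.0595) and with no filter on low counts (0.0635); without any 1 of the other libraries it held. For the interaction of genotype and number, 0 of 31 genes passed the test against 0.0123% of all genes, and at an unadjusted p under 0.05 Myom2 alone qualified (8.02% of all genes), with an interaction of 1.33 (edgeR adjusted p 0.435). An annotated antisense gene, Gm15678, overlaps Myom2. Markers of other cells split by the same number: 5 of 9 cushion mesenchyme markers were lower in every library of the first number than in every other library, among them Sox9 (39.0 to 153.6 CPM against 214.6 to 276.6 CPM), Vcan (138 to 412 against 497 to 839.9 CPM) and Has2 (11.2 to 50.7 against 82.4 to 125 CPM). The summed cushion markers overlapped, at 2873 to 4385 CPM in the first set and 3334 to 4015 CPM elsewhere, as did the skeletal muscle markers, at 26.7 to 99.2 CPM and 41.9 to 81.0 CPM. The skeletal muscle genes Myog and Myh3 were highest in wild type 1 and 2, at 2.00 and 3.45 CPM and at 2.58 and 1.91 CPM. Other genes of that list were not: Tnni2 and Actn3 were highest in deletion 1 and Tnnt3 in deletion 3. Of the 21 skeletal muscle markers, 1 was higher in every library of the first number than in every other library. The part of these cells in the Myom2 value was not tested.

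Smpx came next, at 50.4 and 100.03 CPM in wild type 1 and 2, 37.1 and 94.6 CPM in deletion 1 and 2, 52.9 and 42.5 CPM in wild type 3 and 4, 23.9 and 21.3 CPM in deletion 3 and 4 and 34.4 CPM in deletion 5. The sets overlapped through deletion 1 and wild type 1, 3 and 4. The difference was -1.09 ± 0.35, with an adjusted p of 0.0830 by edgeR and 0.044 by DESeq2, which called Myom2 and Smpx (11.5% of all genes were called). The other 29 genes had values between -0.55 (Myoz2) and 0.53 (Myh7), each with an unadjusted p above 0.05, so that 2 of 31 were under it against 27.4% of all genes. The muscle creatine kinase gene Ckm, no sarcomere gene but among the cardiomyocyte markers of the covariate, had a like distribution. It was at 32.9 to 200.7 CPM in the libraries of the first number and 5.92 to 29.8 CPM in the others. Within the first number the median genotype fold change of the 31 genes was -0.11. There 1 of them was lower at an unadjusted edgeR p under 0.05, against 645 of 17073 genes tested. Within the second number with deletion 5 the median was -0.25. In that fit 12 of the 31 were lower at an unadjusted edgeR p under 0.05, against 462 of 16682 genes tested.

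**Figure D5:**
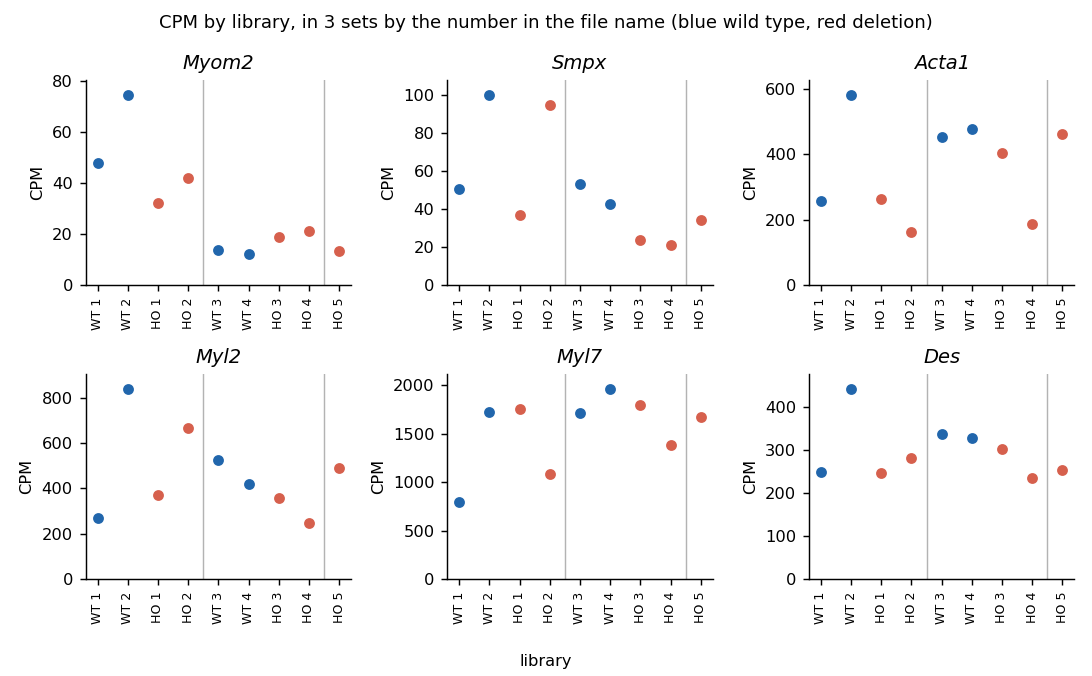
CPM of 6 genes in each library, with libraries in 3 sets by the number in the name of the deposited file (first, second, and deletion 5 alone, divided by grey lines); blue points are wild type and red points deletion. Myom2 is between 32.1 and 74.7 CPM in the first set and at most 21.2 CPM elsewhere, whereas Des is not split by set.

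Of 57 other sarcomere and Z-disc genes on a list, 50 were tested. In the genotype comparison 0 of 50 were called by edgeR, 9 had an unadjusted p under 0.05, all lower in the deletion (against 2.94% of all genes), and 34 of 50 values were below 0, with a median of -0.18. The 9 became 2 without wild type 2, 4 without deletion 5, 5 without deletion 1 and, without wild type 3, wild type 4 or deletion 3, 6; without deletion 4 it was 6, of which 5 were lower. The smallest p values belonged to slow skeletal myosin-binding protein C Mybpc1, the leiomodin Lmod1 and the LIM protein gene Fhl1. Mybpc1 was at 37.5, 63.3, 43.5 and 56.1 CPM in the wild-type libraries and 18.8, 11.7, 34.0, 35.5 and 27.0 CPM in those of the deletion. All deletion libraries were below all wild-type libraries, and the log2 fold change was -0.98 ± 0.30 with an edgeR adjusted p of 0.896. Lmod1, the smooth muscle leiomodin, had a value of -1.27 ± 0.46 with mean levels of 3.46 CPM (wild type) and 1.44 CPM (deletion), and Fhl1 of -0.74 ± 0.29. With the replicate block, DESeq2 called 1 of these genes, Ankrd1, which encodes a cardiac ankyrin repeat protein (-0.48 ± 0.11, adjusted p 0.00582; -0.39 ± 0.18, adjusted p 0.896 by edgeR without the block). It was at 527, 890.1, 698 and 649 CPM in wild type 1 to 4 and 418, 537, 571, 427 and 691 CPM in deletion 1 to 5, and the groups overlapped. Deletion 5, the highest deletion library for Ankrd1, carries no weight in the fit with the block. By library number 7 of 49 were called: Mybpc2, Fhl1 and Tmod4 were lower with the second number (-1.90, -0.86 and -1.64) and Pdlim1, Pdlim3, Pdlim7 and Palld higher (0.39, 1.15, 0.40 and 0.41). That share is to be read against the 9.87% of all genes.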

How the data were processed

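Whole-number read counts per gene symbol were deposited by the authors, 1 table for each of 9 libraries; total RNA went through the SMART-Seq HT chemistry for small inputs, per the labels' protocols. STAR 2.5.0c, Picard, HTSeq 0.6.0, DESeq2 and mm10 are named in the submitters' processing notes; the annotation and strand setting were not given in the sources used here. Rows without a gene name (5 per table, 20.6% to 23.5% of its reads) were left out.

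Of 48397 symbols, 16522 passed edgeR's filterByExpr (minimum count 10, smallest group 4) and entered the robust quasi-likelihood test of edgeR 4.0.16 (R 4.3.3, TMM factors), with Benjamini-Hochberg adjustment over all genes tested and a threshold of 0.05. CPM were scaled by TMM; a prior count of 2 entered log2 CPM. Counts of 0.5 were added for ratios, of which 5 were tested and adjusted together; 1 of them is not reported here. Alternatives were DESeq2 1.42.0, limma 3.58.1 (voom with quality weights), other size factors and filters, covariates and leaving out each library. Scripts were tested on simulated data. Coordinates come from GENCODE for mm10, promoters from RefSeq.

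Same-numbered libraries deviated together (correlations 0.242, 0.137, 0.227 and 0.176, all above 0.1), so the numbers were taken to pair samples, from the data and not the labels. The same-numbered library was the best match in both directions for 2 of 4 pairs. Pairs also share the number in the file names, and its part in these correlations was not tested. Deletion 5 has no partner. The labels do not say that each library is 1 embryo, so p-values measure the spread between these libraries, which may be technical. No libraries were duplicates. Values of every library are given for genes past the threshold, the most abundant gene and the 2 with the smallest genotype p in each group, both genes of each ratio, Ttn and Des; Smpx, Ckm, Ankrd1 and the marker genes given beside Myom2 were added after their values were seen. The 31 genes, the lists and the tests were chosen with earlier results of these data known.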

Additional observations from a re-analysis of the deposited data

Results flagged for a closer look

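In the wild-type group of 4, 7 genes had a library that stood apart by Dixon's ratio (the gap to the nearest library divided by the group's range, critical value 0.829), of 72 groups tested; chance alone flags about 1 in 20 groups. Wild type 1 was the low library for Myh7 (0.865), Myl7 (0.852), Actc1 (0.859), Alpk3 (0.908) and Xirp1 (0.846). Wild type 2 was the high library for Trim63 (0.875) and Nexn (0.856). These genes co-vary and share the same libraries, so the 7 values are not independent of one another.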

How the results depend on the processing

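For the genotype comparison the count of sarcomere genes past the threshold was 0 in every alternative run, the replicate block included (0 genes). Leaving out 1 library in turn, the count by library number ranged from 0 to 1; it was 2 with DESeq2 and 0 with no low-count filter, under which the Myom2 difference was -1.55; it was -1.43 without wild type 3 and -1.36 without wild type 4. For the other sarcomere genes, DESeq2 with the replicate block called 1 by genotype (Ankrd1); by library number DESeq2 called 13, and leaving out 1 library gave 0 to 7 calls. The share of variance on the first component ranged from 60.0% (without wild type 2) to 71.0%. The Nkx2-5 log2 fold change was -1.02 in DESeq2 with the replicate block (adjusted p 0.0267), a fit in which deletion 5 carries no weight. Without the block the DESeq2 adjusted p of Nkx2-5 was 0.0528, which misses the threshold. The cause of these shifts was not tested. Of the 18 genes named by rule (Smpx not counted), the sign of the genotype value differed from the main one in 6 with the cardiomyocyte covariate, 5 without wild type 2, 3 within the first number and 0 or 1 elsewhere. With 4 and 5 libraries the precision is limited: the 95% interval of Myl7, for example, runs from -0.55 to 0.53.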

Other observations

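Outside the lists used here, the 5 genes whose log2 CPM was most like the mean of the 31 sarcomere genes over the 9 libraries, of 9836 with a mean of at least 10 CPM, were Etfb, Mrpl12, Atp5g1, Idh3b and Ndufv1, with Pearson correlations of 0.95 to 0.96. All of them encode mitochondrial proteins: an electron transfer flavoprotein subunit, a mitochondrial ribosomal protein, an ATP synthase subunit, a subunit of isocitrate dehydrogenase and a subunit of complex I. Ndufv1 was at 182, 299.8, 251 and 252 CPM in wild type 1 to 4 and at 221, 243, 232, 216 and 246.9 CPM in deletion 1 to 5, lowest in wild type 1 and highest in wild type 2 as the sarcomere genes were. These likenesses are a ranking over 9 libraries of mixed tissue and carry no test.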
